A study of Mus musculus with 12 samples.

Results

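Transcript levels of 10 genes of glucose uptake, glycolysis and the response to low oxygen were followed across 12 mouse kidney libraries. They are 10 of the 32047 genes in the deposited count table. They were chosen by symbol: the glucose transporter gene Slc2a1, the glycolytic enzyme genes Hk1, Hk2, Pfkp, Aldoa, Pgk1, Pkm and Ldha, the secreted growth factor gene Vegfa, and Hif1a, the oxygen-regulated transcription factor. All 10 were found in the table and all 10 passed the filter on low counts in every comparison.

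Mice overexpressed FGF23 carrying the changes R176Q and R179Q, and 3 weeks on their kidneys were injured through rhabdomyolysis, in which damaged skeletal muscle releases its contents. FGF23 is a hormone of bone that acts on the kidney through FGF receptors and klotho. There were 3 groups of 4 poly(A)-selected libraries from renal tissue: NC, which the labels do not expand, AKI_A_mcherry, named after injury and a red fluorescent protein, and AKI_A_FGF23_R176QR179Q, called the FGF23 variant group below (its libraries are numbered 1, 2, 3 and 5). The labels do not expand the letter A. Not given in the sources used here were the agent behind the injury, the hour of collection, the vector, the promoter and cell type of overexpression, and the strain, sex and age of the mice. No uninjured group with the FGF23 variant or mCherry was analysed here, so injury and anything else given to AKI_A_mcherry but not to NC cannot be told apart. Whether each library stands for its own animal is not stated, and the p-values cover only the spread among these libraries, which may be technical.

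Library totals ran from 55324078 to 70638283 counts. Fgf23 had 320 to 517 counts in each FGF23 variant library and 0 in the other 8, so the libraries matched their labels on the overexpressed gene. Havcr1, the injury molecule KIM-1, was at 1.84 to 4.76 CPM in NC, 1891 to 3639 in AKI_A_mcherry and 531 to 1546 in the FGF23 variant group. CPM (counts brought to a common library total) were scaled by trimmed mean factors (TMM), and values given for single libraries or as mean ± SD (n = 4) are in this unit unless FPKM is named. The summed CPM of 6 proximal tubule markers was 6715 to 10604 in NC, 790.1 to 1210 in AKI_A_mcherry and 1046 to 2533 in the FGF23 variant group. That of 4 injured tubule markers was 13.4 to 22.8, 4052 to 4986 and 677 to 2098. Skeletal muscle, itself rich in glycolytic enzymes, was near 0 throughout: 3 markers summed to 0.878 CPM at most, and Tnnt3 had no count in either injured group. In bulk tissue, fewer cells of a type and less RNA per cell cannot be told apart.

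Glycolysis splits glucose to pyruvate in the cytosol, and lactate dehydrogenase turns pyruvate into lactate when it is not burned in mitochondria. The transcription factor HIF-1, made of HIF-1 alpha and ARNT, switches on many of these enzymes and Vegfa when oxygen is low. HIF-1 alpha is controlled chiefly at the protein level, since prolyl hydroxylases mark it for destruction by VHL when oxygen is present, so the Hif1a transcript is not a measure of its activity. In kidney the proximal tubule makes glucose and relies mainly on fatty acid oxidation, while glycolytic capacity is known to lie mostly in the distal nephron and the medulla.

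HIF-1 binds a short motif whose core is ACGTG or GCGTG. In RefSeq promoters of build GRCm38.p6, taken as the 250 bases before each annotated start, ACGTG stood on either strand (as ACGTG or CACGT) in at least 1 window of 8 of the 10 genes, and in 9 of their 16 windows. Over all promoters 16.6% of 32851 windows held it, and 18.5% of 27025 genes. For Vegfa only the downstream window, chr17:46025164-46025413, held the motif, and the outer window held neither ACGTG nor GCGTG. The downstream window lies inside the gene, and the letters around its match read as VEGF-A coding sequence. Vegfa is thus counted here through a match that does not lie in an upstream promoter. Aldoa windows 2 and 3 overlap and hold the same site, so the window count takes it in both. GCGTG (or CACGC) was in at least 1 window of 5 of the 10 genes, Vegfa again only through its downstream window, against 30.9% of all genes. No ACGTG stood in the windows of Hk1 and Pfkp. A match is a run of letters and not a bound site, and the absence of one says only that these letters are not in the window. The stretches below are shown because the 4 genes carry the motif and did not all move alike in the counts. They run 5′ to 3′ on the gene's strand with the motif in capitals. CACGTG, a palindrome, holds it on both strands.
Slc2a1, chr4:119108689-119108733, + strand: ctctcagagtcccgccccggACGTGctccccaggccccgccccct
Hk2, chr6:82774482-82774700, - strand: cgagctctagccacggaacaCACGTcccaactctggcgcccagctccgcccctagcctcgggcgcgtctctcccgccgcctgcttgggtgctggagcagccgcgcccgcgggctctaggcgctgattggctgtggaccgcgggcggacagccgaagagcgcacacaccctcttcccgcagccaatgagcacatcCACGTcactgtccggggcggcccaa
Pgk1, chrX:106186930-106186993, + strand: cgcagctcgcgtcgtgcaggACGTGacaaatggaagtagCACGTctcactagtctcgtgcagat
Ldha, chr7:46845639-46845794, + strand: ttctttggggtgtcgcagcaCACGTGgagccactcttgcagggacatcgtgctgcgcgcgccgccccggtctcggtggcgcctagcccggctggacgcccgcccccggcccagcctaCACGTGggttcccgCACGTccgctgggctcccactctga
The Slc2a1 match begins 36 bases before the start, those of Hk2 226 and 52 bases before, and those of Pgk1 150 and 131 bases before. In Ldha a pair of CACGTG runs begins 145 and 48 bases before the start and a single CACGT 34 bases before. These genes share the letters but only part of the pattern of counts, as given below. Against NC, Slc2a1 and Hk2 rose in AKI_A_mcherry, and Pgk1 and Ldha did not pass. In the FGF23 variant group Slc2a1, Hk2 and Ldha were lower than in AKI_A_mcherry, and Pgk1 did not pass. Of these calls between the injured groups, those of Slc2a1 and Ldha did not hold in every alternative.

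AKI_A_mcherry was first set against NC, to ask how the injured kidney differed. Slc2a1, Hk2, Pfkp, Aldoa and Pkm rose, Vegfa fell, and Hk1, Pgk1, Ldha and Hif1a did not pass the test. Thus 5 of the 10 genes were higher and 1 lower (edgeR quasi-likelihood test, Benjamini-Hochberg adjusted p at or under 0.05), where over the 18724 genes tested 27.2% were higher and 26.0% lower. The share changed in either direction, 6 of 10, lay near the 53.1% over all genes. The median log2 fold change of the 10 genes was 0.51, against -0.0026 over all genes tested. The libraries of both groups did not overlap for the same 6 genes, 5 above and 1 below, where this was so for 51.5% of all genes, 25.5% above and 26.0% below. With library totals alone the counts were the same and the median of all genes was 0.12.

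The injured groups were then compared, the FGF23 variant group against AKI_A_mcherry. Hk2, Pkm, Ldha and Slc2a1 were lower and none of the 10 was higher, where over 18824 genes 11.4% were lower and 11.7% higher (23.1% in either direction). Libraries did not overlap for 6 of the 10 genes, these 4 below and Hk1 and Pgk1 above, against 28.4% of all genes (13.9% below and 14.5% above). The median log2 fold change was -0.21, against 0.0084 over all genes. Of the 4 calls, that of Hk2 held in every alternative, and the others did not. Leaving out FGF23 variant library 1, 2 or 5 left 1 of the 10 genes called, and leaving out AKI_A_mcherry library 2 or 3 left 2. The split depends on the scaling: with library totals alone 1 gene was lower (Hk2) and 3 were higher (Hk1, Pgk1 and Vegfa), and over all genes 4060 were then higher and 1035 lower, in place of 2199 and 2148. The median log2 fold change was then -0.0052 for the 10 genes and 0.21 for all genes.

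Against NC, the FGF23 variant group had 7 of the 10 genes higher and 2 lower, where over 19005 genes 21.7% were higher and 20.6% lower (42.3% in either direction). Slc2a1, Hk1, Hk2, Pfkp, Aldoa, Pkm and Hif1a rose, Ldha and Vegfa fell, and Pgk1 did not pass. Libraries did not overlap for 8 of the 10 genes, 6 above and 2 below, against 41.6% of all genes (20.4% above and 21.1% below). The median log2 fold change was 0.49, against 0.011 over all genes. With library totals alone the median of all genes moved to 0.34, and the all-gene split from 4123 higher and 3912 lower to 7829 and 2096. Ldha then missed the threshold and 1 of the 10 genes was lower. The comparisons share libraries, so they are not independent of each other. By group means the FGF23 variant group lay between the other groups for 6 genes (Slc2a1, Hk2, Pfkp, Aldoa, Pkm and Vegfa), highest for 3 (Hk1, Pgk1 and Hif1a) and lowest for 1 (Ldha). The share of all genes placed in each way was not computed, so this placing is not shown to be particular to these genes. For Pfkp, Aldoa, Vegfa, Hk1, Pgk1 and Hif1a the difference between the injured groups did not pass.

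**Figure D1:**
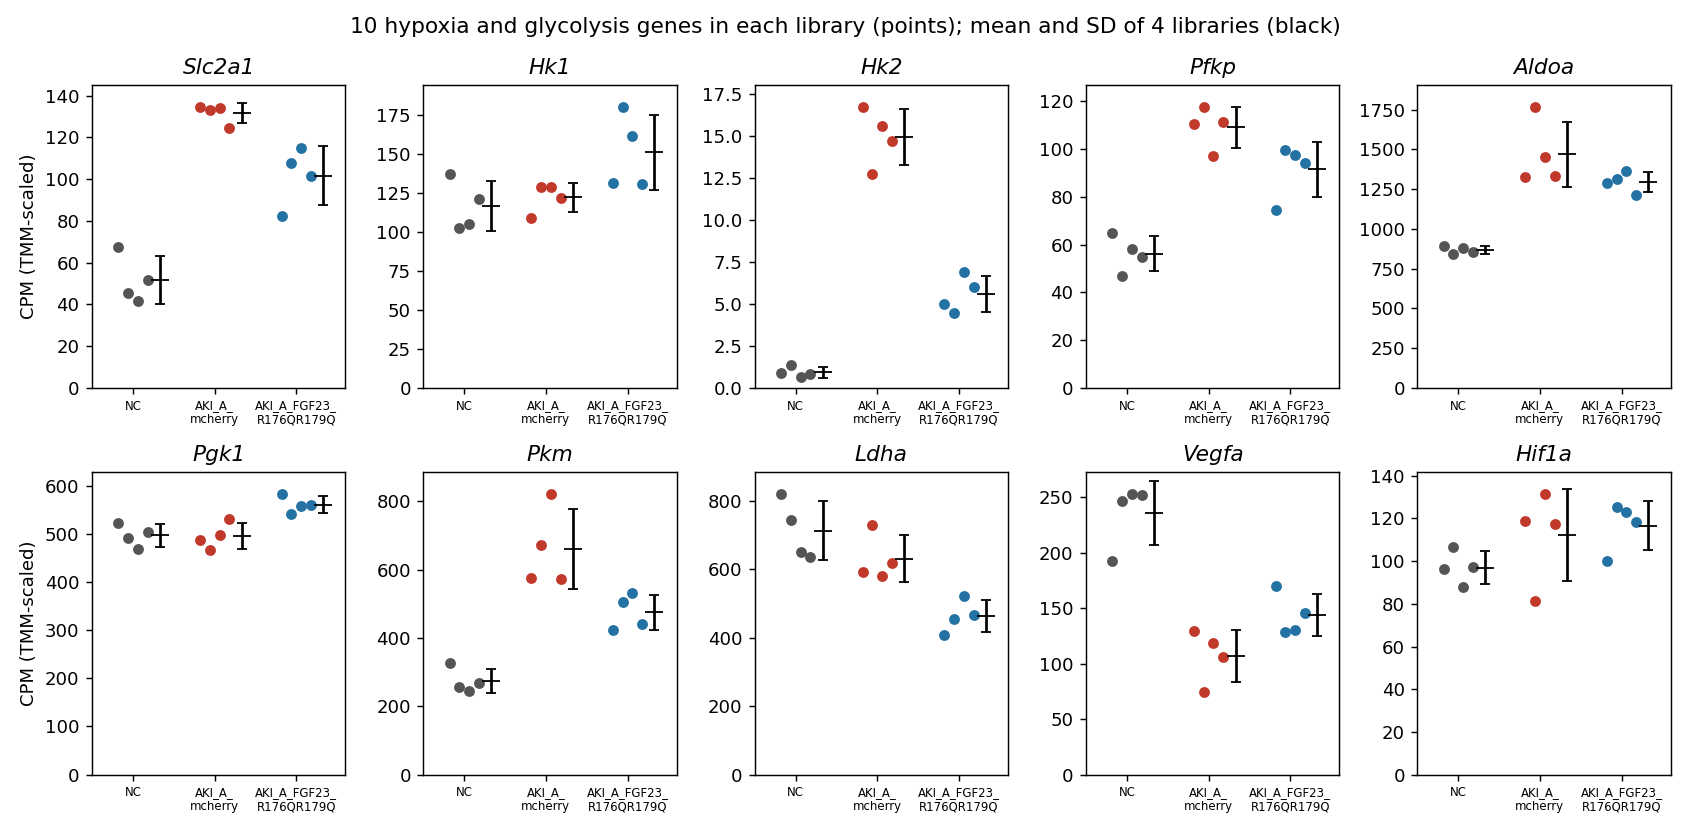
CPM of each of the 10 genes in each library (points), with mean and SD of the 4 libraries of a group beside them; each y axis starts at 0. Hk2 separates the 3 groups with no overlap, from 0.621 to 1.39 in NC through 4.46 to 6.90 in the FGF23 variant group to 12.8 to 16.7 in AKI_A_mcherry, and Pgk1 stays between 465 and 582 in all 12 libraries.

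**Figure D2:**
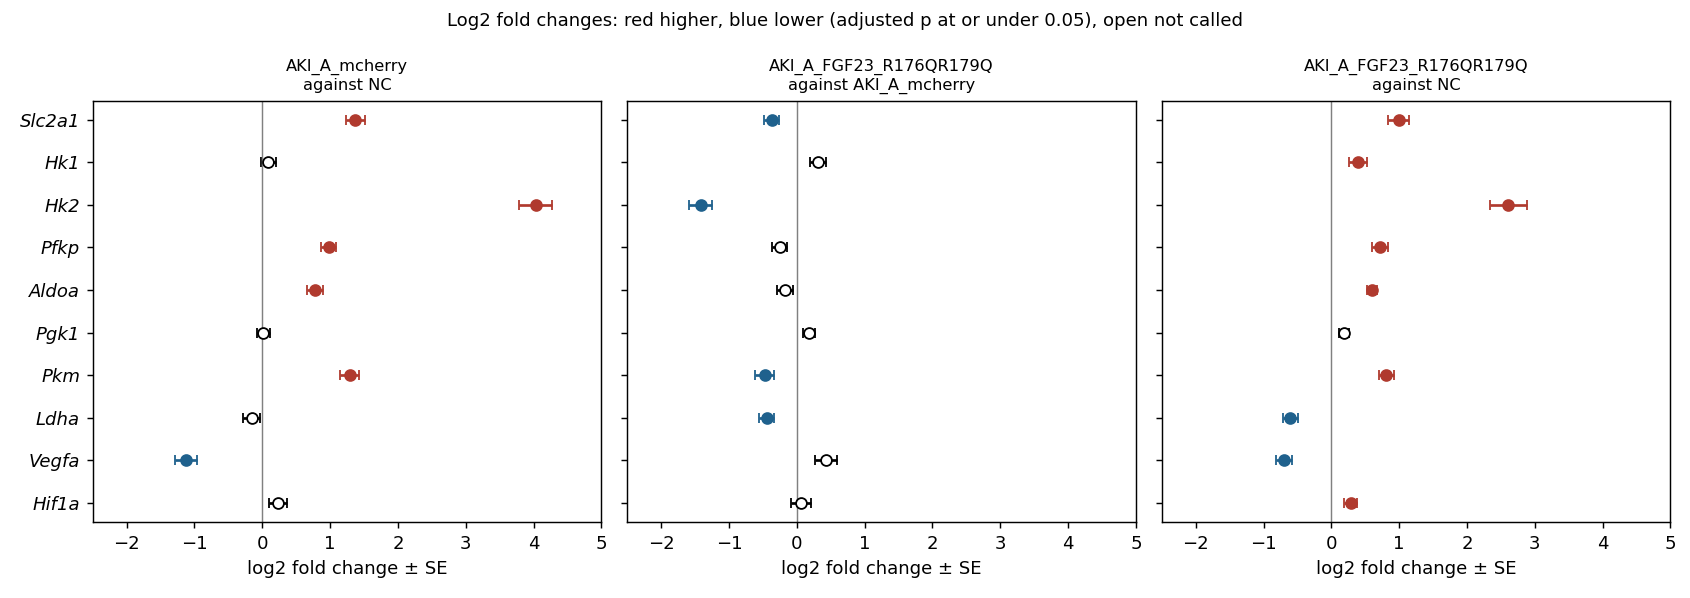
Log2 fold changes with their standard errors for the 10 genes (y axis) in the 3 comparisons; filled points passed the test, red higher and blue lower. Hk2 stands farthest from 0 in each panel, at 4.03, -1.42 and 2.61.

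Slc2a1 (ENSMUSG00000028645) encodes GLUT1, a facilitative glucose transporter of basolateral and endothelial membranes. It was at 67.7, 45.6, 41.5 and 51.8 CPM in NC libraries 1 to 4, at 134, 133, 134 and 125 in AKI_A_mcherry libraries 1 to 4, and at 82.1, 108, 115 and 102 in FGF23 variant libraries 1, 2, 3 and 5. The 3 groups did not overlap, with NC lowest and AKI_A_mcherry highest. Slc2a1 rose 2.59-fold in AKI_A_mcherry over NC (log2 fold change 1.37 ± 0.14, SE, adjusted p = 1.81e-05). It was lower in the FGF23 variant group than in AKI_A_mcherry by a log2 fold change of -0.37 ± 0.11 (adjusted p = 0.0348), a call that held in 6 of 17 alternatives (adjusted p 0.0176 to 0.293). It was lost when any AKI_A_mcherry library, or FGF23 variant library 1, 2 or 5, was left out. The level in the FGF23 variant group was still 1.99-fold that of NC (adjusted p = 4.89e-04).

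Hexokinases trap glucose in the cell as glucose 6-phosphate; Hk1 is the constitutive form and Hk2 the inducible one. Hk1 (ENSMUSG00000037012) was at 137, 103, 105 and 121 CPM in NC, 109, 129, 129 and 122 in AKI_A_mcherry, and 132, 179.9, 161 and 131 in the FGF23 variant group. AKI_A_mcherry overlapped with NC (log2 fold change 0.09 ± 0.11, adjusted p = 0.537). The FGF23 variant libraries were all above those of AKI_A_mcherry, yet the difference did not pass (0.31 ± 0.12, adjusted p = 0.0920). Against NC it passed at 0.39 ± 0.13 (adjusted p = 0.0317), with overlapping libraries and in 11 of 17 alternatives. Leaving out NC library 2, 3 or 4 or FGF23 variant library 2 or 3 ended that call.

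Hk2 (ENSMUSG00000000628) showed the widest differences of the 10 genes. It was at 0.865, 1.39, 0.621 and 0.837 CPM in NC, resting on 38 to 79 counts a library. In AKI_A_mcherry it was at 16.7, 12.8, 15.6 and 14.7, and in FGF23 variant libraries at 4.97, 4.46, 6.90 and 6.02. No library of one group reached into another. Hk2 rose 16.3-fold in AKI_A_mcherry over NC (log2 fold change 4.03 ± 0.25, adjusted p = 4.85e-07). The FGF23 variant group was 2.67-fold lower than AKI_A_mcherry (-1.42 ± 0.17, adjusted p = 7.38e-04), with adjusted p of at most 0.0112 over 17 alternatives, and 6.10-fold higher than NC (adjusted p = 3.38e-05).

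Pfkp (ENSMUSG00000021196), the platelet-type phosphofructokinase of the committed step, was at 64.8, 47.1, 58.4 and 54.9 CPM in NC, 110.5, 118, 97.2 and 112 in AKI_A_mcherry, and 74.4, 99.7, 97.6 and 94.4 in the FGF23 variant group. All injured libraries stood above all NC libraries. Pfkp rose 1.97-fold in AKI_A_mcherry (log2 fold change 0.98 ± 0.12, adjusted p = 5.00e-05) and 1.65-fold in the FGF23 variant group (0.72 ± 0.12, adjusted p = 7.87e-04) over NC. The injured groups overlapped and their difference did not pass (-0.25 ± 0.11, adjusted p = 0.128).

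Aldoa (ENSMUSG00000030695), the aldolase of muscle and most growing cells, followed the same order. It was at 892, 840.0, 882 and 853 CPM in NC, 1324, 1763, 1449 and 1335 in AKI_A_mcherry, and 1288, 1316, 1364 and 1212 in the FGF23 variant group. NC libraries lay within a narrow band below all others, and AKI_A_mcherry library 2 stood above the rest. Aldoa rose 1.72-fold (log2 fold change 0.78 ± 0.12, adjusted p = 3.14e-04) and 1.51-fold (0.60 ± 0.08, adjusted p = 1.31e-04) over NC in AKI_A_mcherry and the FGF23 variant group. Between the injured groups it did not pass (-0.18 ± 0.12, adjusted p = 0.299), and the sign turned with library totals alone.

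Pgk1 (ENSMUSG00000062070), phosphoglycerate kinase, makes the first ATP of glycolysis and is a known HIF target. It was at 523, 491, 468 and 504 CPM in NC, 488, 465, 497 and 529.8 in AKI_A_mcherry, and 582, 540.1, 558 and 560.5 in the FGF23 variant group. AKI_A_mcherry and NC covered the same range (log2 fold change 0.02 ± 0.09, adjusted p = 0.896). The FGF23 variant libraries stood above all 8 others, by a log2 fold change of 0.18 ± 0.09 over AKI_A_mcherry (adjusted p = 0.154) and 0.19 ± 0.07 over NC (adjusted p = 0.0570), neither of which passed. The difference from NC passed in 4 of 17 alternatives, among them DESeq2 and leaving out NC library 1.

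Pkm (ENSMUSG00000032294) encodes pyruvate kinase M, whose spliced forms PKM1 and PKM2 are not separated by gene counts. It was at 325, 256, 246 and 269 CPM in NC, 576, 672, 821 and 573 in AKI_A_mcherry, and 424, 504, 533 and 441 in the FGF23 variant group. None of the 3 groups overlapped with another. Pkm rose 2.44-fold in AKI_A_mcherry over NC (log2 fold change 1.29 ± 0.14, adjusted p = 2.92e-05) and 1.76-fold in the FGF23 variant group (0.81 ± 0.11, adjusted p = 2.10e-04). The FGF23 variant group was lower than AKI_A_mcherry by -0.47 ± 0.14 (adjusted p = 0.0345). That call held in 9 of 17 alternatives (adjusted p 0.00879 to 0.179) and was lost without AKI_A_mcherry library 2 or 3 or FGF23 variant library 1, 2 or 5.

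Ldha (ENSMUSG00000063229), the lactate dehydrogenase subunit that favours lactate formation, did not follow Pkm. It was at 819, 744, 649 and 636 CPM in NC, 592, 730.2, 581 and 619 in AKI_A_mcherry, and 409, 456, 520.3 and 467 in the FGF23 variant group. AKI_A_mcherry and NC overlapped (log2 fold change -0.15 ± 0.12, adjusted p = 0.325), while the FGF23 variant libraries lay below both. Ldha was lower in the FGF23 variant group by -0.44 ± 0.11 against AKI_A_mcherry (adjusted p = 0.0205; called in 12 of 17 alternatives, adjusted p 0.00303 to 0.114) and by -0.60 ± 0.11 against NC (adjusted p = 0.00122). Its call against AKI_A_mcherry was lost without FGF23 variant library 1, 2 or 5, and that against NC with library totals alone (adjusted p = 0.0603).

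Vegfa (ENSMUSG00000023951), which keeps up the peritubular and glomerular capillaries and is induced by HIF, was lower in both injured groups than in NC. It was at 193, 246, 253 and 252 CPM in NC, 129, 74.9, 118 and 106 in AKI_A_mcherry, and 170.4, 129, 131 and 146 in the FGF23 variant group. All injured libraries were below all NC libraries. Vegfa fell 2.17-fold in AKI_A_mcherry (log2 fold change -1.12 ± 0.16, adjusted p = 2.04e-04) and 1.62-fold in the FGF23 variant group (-0.70 ± 0.12, adjusted p = 0.00102) from NC. The injured groups overlapped and the difference of 0.43 ± 0.16 did not pass (adjusted p = 0.0860). Beside this, the 4 thick ascending limb markers summed to 5635 to 8388 CPM in NC, 3056 to 3482 in AKI_A_mcherry and 4896 to 7369 in the FGF23 variant group, and 4 podocyte markers to 267 to 386, 254 to 478 and 312 to 431. Umod, with means of 5064, 3064 and 5299 CPM, made up most of the thick ascending limb sums. Slc12a1 of that list had means of 1307, 94.5 and 700 CPM. Of the 4 thick ascending limb markers 3 were lower in AKI_A_mcherry than in NC and 1 did not pass. In the FGF23 variant group 3 were higher than in AKI_A_mcherry, and 1 was lower than in NC. Podocytes and tubule cells both make VEGF-A, and the part of either in the Vegfa difference was not tested.

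Hif1a (ENSMUSG00000021109), the gene of the oxygen-regulated HIF-1 subunit, overlapped between all 3 groups. It was at 96.2, 106, 87.9 and 97.5 CPM in NC, 119, 81.5, 131 and 117 in AKI_A_mcherry, and 99.9, 125, 123 and 118 in the FGF23 variant group. AKI_A_mcherry library 2 was the lowest of all 12 and the other 3 of that group were above NC. Hif1a did not pass in AKI_A_mcherry against NC (log2 fold change 0.23 ± 0.14, adjusted p = 0.180), but passed without AKI_A_mcherry library 2 (adjusted p = 0.00981). The FGF23 variant group overlapped with AKI_A_mcherry and did not pass against it (0.06 ± 0.14, adjusted p = 0.805) and higher than NC by 0.28 ± 0.09 (adjusted p = 0.0320). The latter rested on overlapping libraries and held in 9 of 17 alternatives, and it was lost without NC library 1, 3 or 4 or FGF23 variant library 2, 3 or 5.

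Levels of different genes were compared per length, by the deposited FPKM. These are not TMM-scaled, so they are read within a group. The gene lengths behind the FPKM were not checked, and the order between genes depends on them. In NC, for example, Pfkp and its relative Pfkm were at 56.3 and 62.8 CPM but at 3.45 and 15.5 FPKM. In NC the order was Aldoa (245 ± 7.31 FPKM), Pgk1 (182 ± 7.24), Ldha (177 ± 22.1), Vegfa (45.3 ± 5.79), Pkm (45.1 ± 5.44), Hif1a (13.5 ± 1.18), Slc2a1 (12.1 ± 2.57), Hk1 (11.2 ± 1.38), Pfkp (3.45 ± 0.425) and Hk2 (0.125 ± 0.0465; SD, n = 4). Pgk1 with Ldha, Vegfa with Pkm, Hif1a with Slc2a1, and Slc2a1 with Hk1 overlapped between libraries. In AKI_A_mcherry Aldoa (453 ± 37.0), Pgk1 (199.7 ± 21.2), Ldha (171 ± 8.69) and Pkm (119 ± 23.0) led. Slc2a1 (33.9 ± 2.02) then stood above Vegfa (22.8 ± 5.87), Hif1a (17.3 ± 4.11), Hk1 (12.9 ± 1.06), Pfkp (7.34 ± 0.443) and Hk2 (2.27 ± 0.358). There Vegfa overlapped with Hif1a, Hif1a with Hk1, and Pgk1 with Ldha. In the FGF23 variant group Vegfa (35.1 ± 4.90) and Slc2a1 (30.3 ± 4.08) overlapped, as did Hif1a (20.6 ± 1.94) and Hk1 (18.5 ± 2.78). Aldoa (465 ± 20.3), Pgk1 (261 ± 9.69), Ldha (146 ± 14.2) and Pkm (99.3 ± 10.1) were each apart from their neighbours, as were Pfkp (7.13 ± 0.879) and Hk2 (0.975 ± 0.192). Aldoa was thus the most abundant and Hk2 the least abundant of the 10 in each group, and Slc2a1 and Vegfa changed places between NC and AKI_A_mcherry.

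Members were then set against a relative that does the same step, as a ratio of FPKM within a library, which no library scaling can move. The size of such a ratio depends on the unchecked gene lengths, so ratios are read between groups. In the kidney Slc2a2 (GLUT2) and Fbp1 belong to the glucose-handling and glucose-making proximal tubule. Slc2a1 over Slc2a2 was 0.389 to 1.12 in NC, 3.73 to 8.09 in AKI_A_mcherry and 1.54 to 4.35 in the FGF23 variant group. This ratio was higher in every injured library than in any NC library, and the injured groups overlapped.

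Hk2 over Hk1 was 0.00781 to 0.0188 in NC, 0.142 to 0.219 in AKI_A_mcherry and 0.0353 to 0.0656 in the FGF23 variant group, with 2-decimal FPKM of Hk2 making the NC ratio coarse. Pfkp over the muscle-type Pfkm was 0.186 to 0.261, 0.978 to 1.60 and 0.393 to 0.682. Ldha over Ldhb, the subunit that favours pyruvate, was 0.277 to 0.343, 0.416 to 0.497 and 0.266 to 0.358. In these 3 ratios AKI_A_mcherry stood above every library of both other groups. For Ldha over Ldhb, the FGF23 variant group overlapped with NC.

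Pfkp over the liver-type Pfkl was 0.374 to 0.490 in NC, 0.686 to 1.30 in AKI_A_mcherry and 0.629 to 0.822 in the FGF23 variant group. Pkm over Pklr, the pyruvate kinase of liver and red cells, was 4.83 to 8.36, 6.22 to 29.7 and 9.70 to 12.9, so AKI_A_mcherry overlapped with NC. Vegfa over Vegfb had medians of 1.93, 1.14 and 1.46, with every AKI_A_mcherry library below every NC library and the FGF23 variant group overlapping with both. Hif1a over Epas1, the HIF-2 alpha gene, was 0.770 to 1.79, 1.29 to 2.13 and 1.17 to 1.72, and all 3 groups overlapped. The relatives moved as well. In AKI_A_mcherry against NC, Slc2a2 (log2 fold change -1.67, adjusted p = 2.73e-04), Pfkm (-1.46, adjusted p = 1.79e-06) and Ldhb (-0.72, adjusted p = 1.76e-04) fell. Pfkl, Pklr, Epas1 and Vegfb did not pass (adjusted p 0.258, 0.396, 0.475 and 0.403), though Pklr did without AKI_A_mcherry library 3 (adjusted p = 0.0485).

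**Figure D3:**
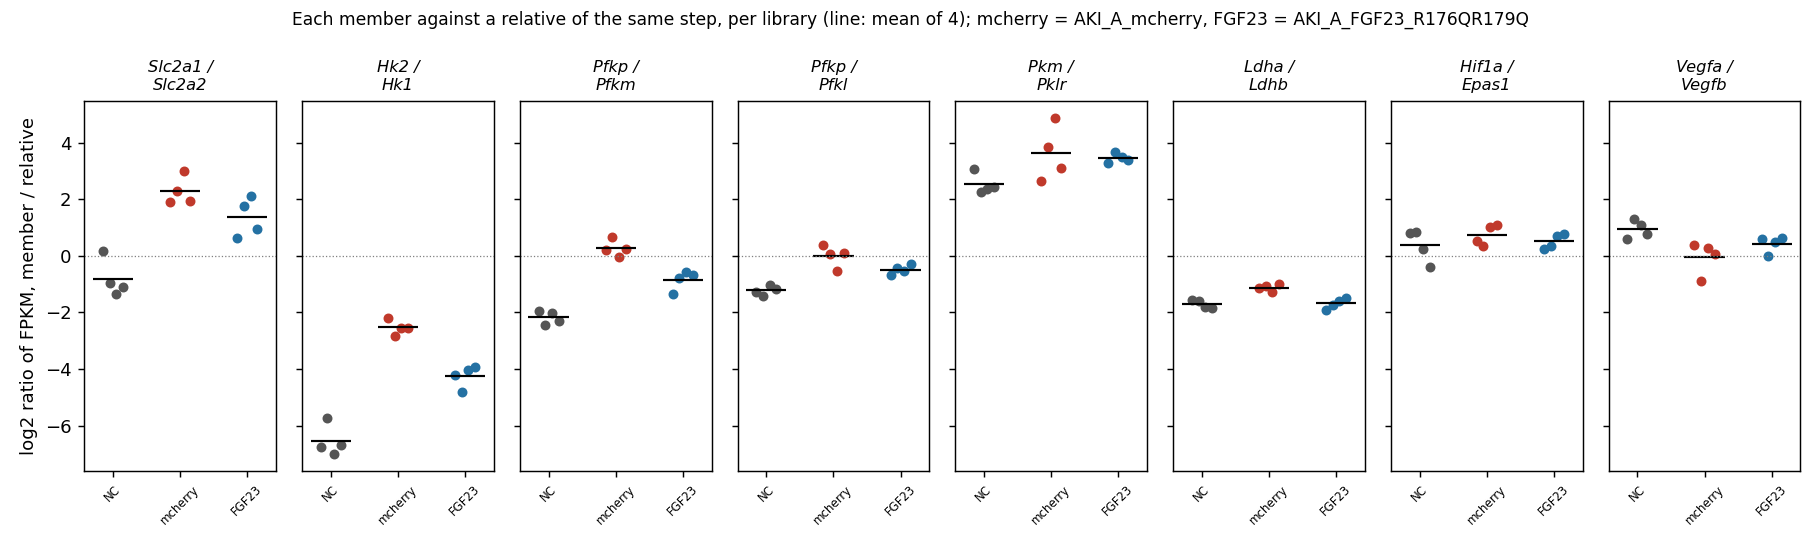
Log2 ratio of FPKM of each gene to its relative in each library (points), by group, with the group mean as a line. Hk2 over Hk1 and Pfkp over Pfkm separate all 3 groups, and Ldha over Ldhb puts AKI_A_mcherry above the other groups.

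The other genes of the pathway were counted in 7 lists of 79 genes, of which 77 were tested. In AKI_A_mcherry against NC, 15 were higher and 32 lower, with a median log2 fold change of -0.37. So 47 of 77 passed, where 53.1% of all genes did (27.2% higher and 26.0% lower). Between the injured groups 18 were higher and 6 lower in the FGF23 variant group, with a median of 0.20, and 33 were higher and 4 lower with library totals alone. The shares over all genes were 11.7% higher and 11.4% lower. Against NC 18 were higher and 23 lower, with a median of -0.13, where 21.7% of all genes were higher and 20.6% lower. The counts of single lists below are to be read against these shares, and no test compared a list with other genes.

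Glucose transporter genes other than Slc2a1 were lower in AKI_A_mcherry than in NC in 4 of 5, and none was higher. Slc2a5, the fructose transporter GLUT5, fell 6.85-fold from 81.9 ± 11.2 to 11.8 ± 2.69 CPM (edgeR adjusted p = 5.59e-07) and Slc2a4, the insulin-responsive GLUT4, 3.41-fold (adjusted p = 3.63e-06). With the FGF23 variant Slc2a4 was 2.67-fold higher than in AKI_A_mcherry (adjusted p = 6.43e-04) and Slc2a9, a urate transporter, 2.03-fold (adjusted p = 5.78e-04), the 2 of 5 that passed there. Against NC 2 of 5 remained lower, Slc2a5 by a log2 fold change of -1.99 and Slc2a2 by -1.14.

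Of 17 other glycolytic enzyme genes tested, 3 were higher and 7 lower in AKI_A_mcherry than in NC. Eno2, a neuron-type enolase, rose 3.85-fold to 5.76 ± 0.639 CPM (adjusted p = 4.79e-05) and Hkdc1, a further hexokinase, 2.79-fold (adjusted p = 0.0107). Pfkm, the muscle-type phosphofructokinase, fell from 62.8 ± 3.42 to 22.6 ± 2.88 CPM. The FGF23 variant group had 3 higher and 1 lower than AKI_A_mcherry: Aldoc (2.34-fold, adjusted p = 0.0190) and Pfkm (1.81-fold, adjusted p = 0.00199) rose in the FGF23 variant group, while Ldhd, the mitochondrial D-lactate dehydrogenase, was 2.75-fold lower (adjusted p = 1.75e-04). Ldhd stepped down over the groups, at 1783 ± 76.6 CPM in NC, 754 ± 77.8 in AKI_A_mcherry and 273 ± 36.4 in the FGF23 variant group. Against NC the FGF23 variant group had 3 higher and 6 lower, or 6 higher and 4 lower with library totals alone. Gapdh read 30 to 112 CPM. Gapdh and several other glycolytic genes are known to have processed pseudogenes, and how reads shared with such copies were counted was not tested, so its value is uncertain.

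Genes that set the fate of pyruvate and lactate passed the test in 13 of 14 cases in AKI_A_mcherry against NC, 4 higher and 9 lower. The monocarboxylate carriers split. Slc16a1 (MCT1) rose 3.10-fold (adjusted p = 2.98e-07) and Slc16a3 (MCT4), the lactate exporter of glycolytic cells, 3.68-fold to a low 3.83 ± 1.38 CPM (adjusted p = 4.01e-04), whereas Slc16a7 (MCT2) fell 5.88-fold (adjusted p = 4.85e-07). Pdk2, a kinase that holds pyruvate dehydrogenase inactive, fell 5.25-fold from 254 ± 36.6 to 47.6 ± 3.17 CPM (adjusted p = 1.55e-07). Between the injured groups 4 were higher and 1 lower in the FGF23 variant group, or 9 higher and none lower with library totals alone. Slc16a7 was 3.52-fold higher (adjusted p = 7.89e-04), Pdk2 1.84-fold higher (adjusted p = 0.00321) and Slc16a3 1.90-fold lower (adjusted p = 0.0346, called in 9 of 16 alternatives and lost without AKI_A_mcherry library 2 or FGF23 variant library 1, 2 or 5). Against NC 3 of 14 were higher and 8 lower, among them Slc16a1 (3.49-fold higher, adjusted p = 3.98e-07), Slc16a3 (1.93-fold higher, adjusted p = 0.0107) and Pdp2, a phosphatase that activates pyruvate dehydrogenase (2.38-fold lower, adjusted p = 5.41e-04).

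Among 7 regulators of the phosphofructokinase step, 1 was higher and 3 lower in AKI_A_mcherry than in NC (2 and 2 with library totals alone, 2 and 3 with DESeq2). Fbp1, the gluconeogenic fructose bisphosphatase that runs against it, fell 9.20-fold from 836 ± 93.3 to 89.6 ± 28.8 CPM (adjusted p = 1.19e-06). It stayed at 97.9 ± 35.8 CPM in the FGF23 variant group (8.43-fold under NC, adjusted p = 3.92e-06). Tigar, which lowers fructose 2,6-bisphosphate, rose 1.54-fold (adjusted p = 0.00324), and Pfkfb2, a bifunctional enzyme that makes and removes it, fell 1.68-fold (adjusted p = 0.00365). Pfkfb2 was the 1 of 7 to pass between the injured groups, 1.53-fold higher in the FGF23 variant group (adjusted p = 0.0209), and it was lost without FGF23 variant library 1 or 5.

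Of 9 genes for HIF subunits and oxygen sensors, 1 was higher and 3 lower in AKI_A_mcherry than in NC, or 1 and 1 with library totals alone. Egln1, the main prolyl hydroxylase (PHD2), fell 1.44-fold (adjusted p = 0.00157), and Egln3 (PHD3), itself a HIF target, 1.58-fold (adjusted p = 0.0159; 0.0689 with library totals alone). Arnt2 rose 1.34-fold (adjusted p = 0.0207), a call lost without AKI_A_mcherry library 1 or 4 or NC library 1 or 3. Against AKI_A_mcherry only Hif3a, a HIF-alpha relative at 2.82 ± 0.919 against 0.685 ± 0.369 CPM, passed of the 9 (adjusted p = 0.0126), or 4 higher with library totals alone. Against NC the FGF23 variant group had Hif3a (3.03-fold, adjusted p = 0.00226) and Arnt2 (log2 fold change 0.58, adjusted p = 8.79e-04) among 3 higher, and Egln1 as the 1 lower (1.71-fold, adjusted p = 3.58e-05).

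Of 16 other HIF target genes tested, 6 were higher and 5 lower in AKI_A_mcherry than in NC, where 27.2% of all genes were higher and 26.0% lower. Hilpda, a lipid droplet protein, rose 4.22-fold from 1.55 ± 0.524 to 6.44 ± 1.26 CPM (adjusted p = 8.71e-05). Car9, the carbonic anhydrase often read as a hypoxia marker, fell 6.98-fold from 14.4 ± 3.77 to 2.04 ± 0.461 CPM (adjusted p = 5.10e-06), and Bnip3, a mitophagy receptor, 2.39-fold (adjusted p = 2.93e-06). Between the injured groups 3 were higher and 4 lower in the FGF23 variant group, or 6 higher and 3 lower with library totals alone. This comparison shares the AKI_A_mcherry libraries with the one before. Hilpda, named here for its place in the first comparison, was 2.16-fold lower (adjusted p = 0.00361), Car9 2.65-fold higher (adjusted p = 0.00718) and Bnip3 1.49-fold higher (adjusted p = 0.00308). Angptl4, a lipase inhibitor, was 3.36-fold lower (adjusted p = 0.0182; 0.0542 without FGF23 variant library 2). Against NC 6 of 16 were higher and 4 lower, with Adm, adrenomedullin, 2.63-fold higher (adjusted p = 5.39e-04) and Mxi1, a MYC antagonist, 1.87-fold lower (adjusted p = 3.30e-05).

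In the VEGF family and its receptors 1 of 9 genes was lower in AKI_A_mcherry than in NC, Vegfd (2.12-fold, adjusted p = 0.00157), and none was higher. DESeq2 called 3 of 9 lower. Of the 9, 4 were higher and none lower in the FGF23 variant group than in AKI_A_mcherry. Flt1 (VEGFR1) rose 2.04-fold from 22.7 ± 7.29 to 46.3 ± 6.97 CPM (adjusted p = 0.00735) and Flt4 (VEGFR3) 1.97-fold (adjusted p = 0.0131). Against NC Flt1 (1.52-fold, adjusted p = 0.00876) and Nrp1, a VEGF co-receptor (1.31-fold, adjusted p = 0.0212), were higher and Vegfd was lower (1.67-fold, adjusted p = 0.0115), or 5 of 9 were higher and none lower with library totals alone. The Nrp1 call was lost without NC library 1 or FGF23 variant library 2 or 5. These receptors are mainly endothelial. Of 5 endothelial markers, 2 were lower and 3 did not pass in AKI_A_mcherry against NC, and 3 were higher and 2 did not pass with the FGF23 variant against AKI_A_mcherry. Their sums were 227 to 314 CPM in NC, 143 to 249 in AKI_A_mcherry and 272 to 366 in the FGF23 variant group, and no endothelial marker was at 0. Their part in the receptor differences was not tested.

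**Figure D4:**
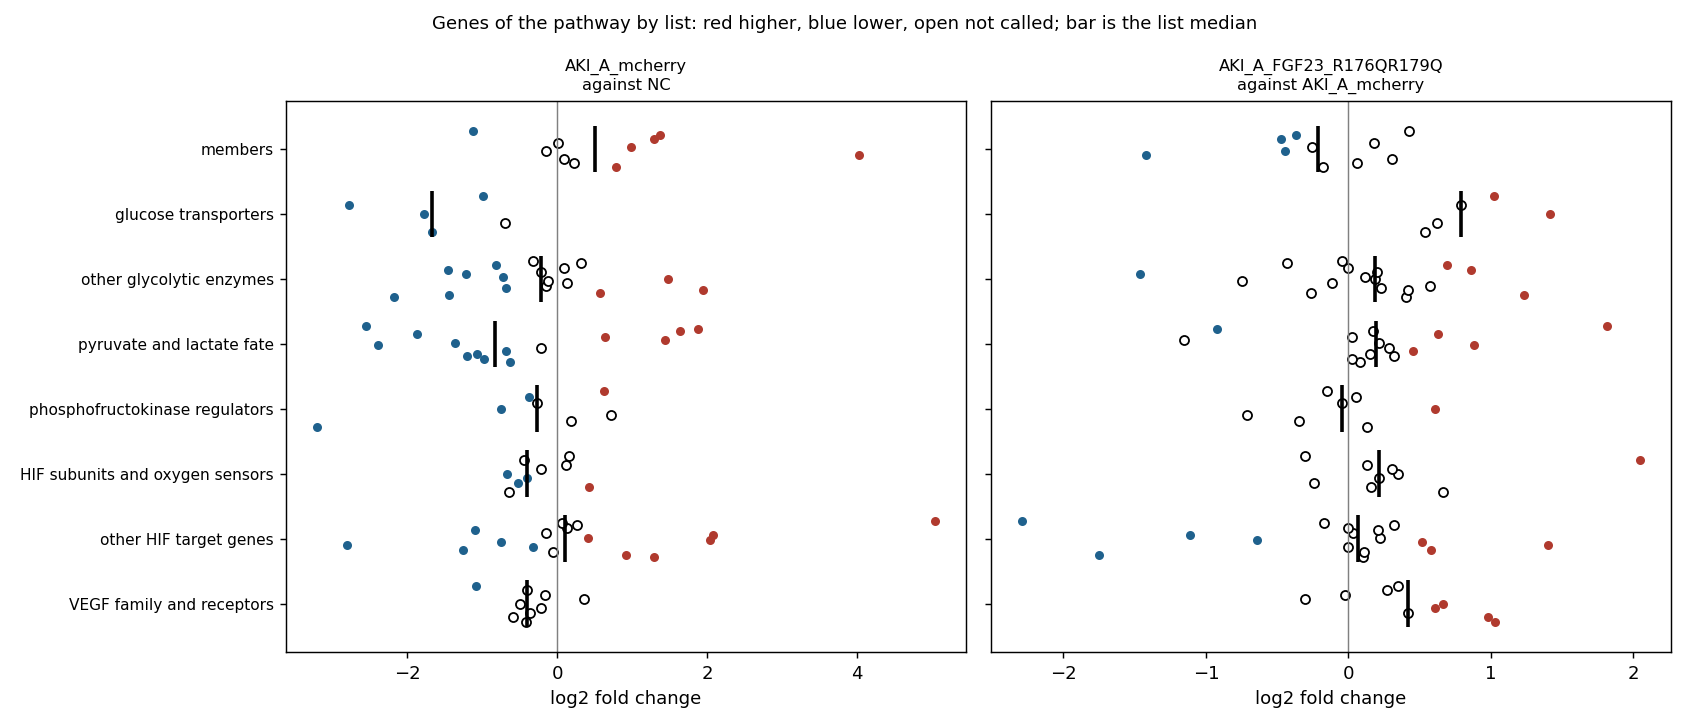
Log2 fold changes of the 10 genes (top row, members) and of the 7 pathway lists (1 point per gene, a bar at the list median) in AKI_A_mcherry against NC and in the FGF23 variant group against AKI_A_mcherry; filled points passed the test, red higher and blue lower. The 10 genes and the glucose transporter list have medians of opposite sign in both panels.

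Markers of cell types that could carry glycolytic or hypoxic transcripts moved with the groups as well, and their part in the results above was not tested. All 6 proximal tubule markers were lower in both injured groups than in NC, and 2 of 6 differed between the injured groups, higher with the FGF23 variant. Of 4 injured tubule markers 3 were higher in AKI_A_mcherry than in NC and 3 were lower in the FGF23 variant group than in AKI_A_mcherry. Markers of the thick ascending limb (4), distal convoluted tubule (3) and collecting duct (5) moved too. In AKI_A_mcherry 3, 2 and 3 of them were lower than in NC, and 1 collecting duct marker was higher. In the FGF23 variant group 3, 2 and 2 were higher than in AKI_A_mcherry and none was lower. Against NC 1, 1 and 2 were lower and none was higher. Macrophages and neutrophils are highly glycolytic. Between these cell types, only the macrophage markers that passed went both ways. The 5 macrophage markers summed to 112 to 161 CPM in NC, 92.3 to 210 in AKI_A_mcherry and 76.1 to 105 in the FGF23 variant group, with 1 higher and 2 lower in AKI_A_mcherry than in NC. The 5 neutrophil markers summed to 0.964 to 1.76, 3.20 to 9.94 and 1.90 to 6.19 CPM. Of the 4 tested, 3 were higher and none lower in AKI_A_mcherry than in NC. None of these markers was at 0 in a whole group.

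The genes most like each of the 10 over the 12 libraries were taken as those with the smallest root mean square difference of centred log2(CPM + 1), among 11034 genes. For Slc2a1 they were Tax1bp3 (0.0864), Myl12a (0.105) and Pbdc1 (0.115), and for Hk2 Rap2b (0.201), Fndc4 (0.242) and Arl4c (0.248). For Pkm they were Nectin2 (0.0954), Chmp4b (0.0959) and Cdc42ep2 (0.114), and for Pfkp Specc1 (0.101), Trim27 (0.105) and Slc35f6 (0.107). All 12 of these had their lowest mean in NC and their highest in AKI_A_mcherry. That is the order of the members they were picked to resemble, so it adds no separate observation. Aldoa lay nearest to Tomm40 (0.0618), Exosc3 (0.0683) and H13 (0.0700), and Pgk1 to Nmt1 (0.0575), Ufm1 (0.0593) and Tomm70a (0.0713). Ldha lay nearest to Suds3 (0.0958), Nudt14 (0.0985) and Pebp1 (0.101), and Vegfa to Pld1 (0.124), Zfp871 (0.125) and Tbcel (0.126). Hk1 lay nearest to St5 (0.111), Zfp938 (0.114) and Ciao2b (0.118), and Hif1a to Efnb1 (0.0911), Rab6a (0.0958) and Smad5 (0.0978). All 12 libraries enter these differences, and no test was made of them.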

How the data were processed

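Poly(A) RNA of 12 mouse renal samples was made into dUTP-marked libraries and sequenced, per the labels' protocols. According to the submitters' processing notes the build was GRCm39 and the tools included fastp, StringTie and edgeR. Their roles, versions, the aligner and the annotation were not given in the sources used here. Per the file headers, the authors deposited a count and an FPKM value for each gene in each library. A supplied table gave symbols for 31942 of 32047 gene identifiers, leaving 105 unnamed. Aldoa is carried by 2 identifiers, and the second, with 215 counts in all, was not used. The value 4 occurs 11995 times in the count table and 3 only 5847 times, and 8 occurs 5627 times against 3434 for 7 and 2377 for 9. How this arose is not known, and the counts may not stand for independent molecules. The fits took the counts as deposited, with no correction for this.

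Each pair of groups was fitted on its own 8 libraries across all genes. edgeR 4.0.16 (R 4.3.3) was run with TMM scaling, its filterByExpr minimum and the quasi-likelihood test, and p-values were adjusted by Benjamini and Hochberg's method with a threshold of 0.05. Adjusted p-values come from this test unless an alternative is named. The script was tested on simulated data. TMM factors were 0.879 to 0.911 in NC, 0.903 to 1.02 in AKI_A_mcherry and 1.12 to 1.15 in the FGF23 variant group. CPM use factors over all 12 libraries. Levels between genes and ratios use FPKM, with no test. The 17 alternatives per gene were RLE scaling, upper quartile scaling, library totals alone, all genes kept, a filter of 5 CPM on the mean, DESeq2 1.42.0, limma-voom (limma 3.58.1) with quality weights, a joint fit of all 12 libraries, a block for the replicate number, and leaving out each of the 8 libraries. Genes named besides the 10 and their relatives are, for each list and comparison, up to 2 per direction with the greatest fold change among those past the threshold with a mean of at least 1 CPM. Some genes that this rule names are not reported here. The 10 genes, lists and markers were chosen with earlier results of these data known. Promoters are from RefSeq, and only they carry coordinates.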

Additional observations from a re-analysis of the deposited data

Results flagged for a closer look

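Of 171 sets of 4 libraries checked, 6 held 1 library far from the other 3 by Dixon's criterion for the gap to the nearest library over the whole range; chance gives about 1 in 20. Slc2a1 was lowest in AKI_A_mcherry library 4, at 124.8 CPM against 133 to 134 in the others. Vegfa was lowest in NC library 1, at 193 CPM against 246 to 253. Vegfb was highest in AKI_A_mcherry library 2, at 52.0 CPM against 36.3 to 37.7. Egln1 was lowest in FGF23 variant library 3, at 45.2 CPM against 50.5 to 51.0. Hk2 over Hk1 was highest in NC library 2, at 0.0188 against 0.00781 to 0.00962. Pkm over Pklr was highest in NC library 1, at 8.36 against 4.83 to 5.35.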

How the results depend on the processing

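Between the injured groups, 4 of the 10 genes were lower; this count fell to 2 with no filter, to 1 with the replicate block, to 1 with library totals alone (which gave 3 higher), and to between 1 and 4 with a library left out. The pathway lists there had 24 genes called and 18 higher, and 37 called and 33 higher with library totals alone. In the FGF23 variant group against NC, 2 genes were lower and 1 with library totals alone or with the replicate block, and 18 list genes were higher, 28 with library totals alone and 11 with the block. In AKI_A_mcherry against NC, the counts over the 10 genes and over all lists together stayed within 1.5 times of the reported value in the alternatives run. Counts of single lists there did not all do so: with library totals alone 1 HIF subunit or sensor gene was lower in place of 3 and 2 phosphofructokinase regulators were higher in place of 1, and DESeq2 gave 3 lower VEGF family genes in place of 1 and 2 higher regulators in place of 1.

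The sign changed for differences near 0. For Pgk1, AKI_A_mcherry against NC, the log2 fold change was -0.00135 with a mean of at least 5 CPM and -0.00478 with all 12 libraries, and it lay between -0.0182 (without AKI_A_mcherry library 4) and 0.0424 with a library left out, also below 0 without NC library 3. Epas1 there lay between -0.36 and 0.10, the latter without NC library 4. In the injured groups Aldoa was at 0.034 with library totals alone, and Hif1a between -0.065 (without AKI_A_mcherry library 2) and 0.14. The causes were not tested. All 243 recomputed ratios kept within the replicate spread. Library scaling cannot move these ratios, and a mean shifts little when a library is left out, so this says little about robustness.

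Whether replicate numbers pair the libraries is not stated, and so few libraries cannot settle it. Same-numbered libraries correlated at -0.39 to 0.10 in their deviations in AKI_A_mcherry and NC. The values were 0.081 to 0.23 in the injured groups, and -0.22 to -0.099 in the FGF23 variant group and NC. Between the injured groups FGF23 variant libraries 1 and 3 correlated best with their own number and library 2 did not. In the comparisons with NC no library did. With the block 944 genes were higher and 766 lower between the injured groups, in place of 2199 and 2148, and 2382 and 2333 in the FGF23 variant group against NC, in place of 4123 and 3912. In the FGF23 variant comparisons the block leaves 6 libraries, those with shared numbers. Besides calls lost in other alternatives too, the block fit missed the threshold for Vegfa (adjusted p = 0.0553), Slc2a2 (0.0622), Slc16a3 (0.0953) and Tigar (0.146) in the FGF23 variant group against NC, and for Car9 (0.0820) and Flt4 (0.0584) between the injured groups. Depth limits Hk2 in NC, at 38 to 79 counts.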
